A study of Mus musculus with 12 samples.

Results

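The effect of adding the secreted protein Rspo2 to Wnt3a was measured in C57MG cells, a mouse mammary epithelial line, by setting 3 arrays of cells given both proteins against 3 arrays of cells given Wnt3a alone. The comparison therefore used 6 of the 12 arrays of the series, chosen by the treatment in the sample titles. All monolayers were kept for 24 h with 100 ng/ml recombinant mouse Wnt3a, 100 ng/ml recombinant human Rspo2, both, or the carrier bovine serum albumin (BSA), and RNA from 3 monolayers per treatment was hybridized separately. Every group was the same cell line, so the data describe 1 line at 1 dose and 1 time. The p-values measure the spread between arrays of separate monolayers, which for Wnt3a and for Rspo2 alone includes differences between slides.

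R-spondins bind the receptors Lgr4, Lgr5 and Lgr6 and, as background knowledge, hold back the ubiquitin ligases Rnf43 and Znrf3, which otherwise clear Frizzled Wnt receptors from the cell surface. Wnt3a binding to Frizzled and Lrp5 or Lrp6 stabilizes β-catenin, which acts with Tcf/Lef factors at target genes, several of which encode inhibitors of the pathway. In the mammary gland this pathway is known for its part in stem and basal cells and in tumours driven by mouse mammary tumour virus.

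Levels below are log2 signals relative to the 75th percentile of the same array, so 0 is the level of that percentile, and a difference of 1 is 2-fold. Testing was limited to the 22750 of 41174 probes that all 3 arrays of some group showed well above background. A probe was called when limma gave a Benjamini-Hochberg adjusted p under 0.05 and the change was at least 2-fold. The 75th percentile lay between 774 and 899 intensity units on the Wnt3a arrays and between 942 and 1058 on those with both proteins. Between 54.1% and 55.2% of probes stood above background with Wnt3a, and between 56.3% and 61.7% with both. Slides held 4 arrays each. The 3 Rspo2 plus Wnt3a arrays and Wnt3a replicate 3 were on the same slide, and Wnt3a replicates 1 and 2 were on another with 2 Rspo2 arrays. On the first principal component of the 6 arrays, which held 45.7% of the variance, Wnt3a replicates 1 and 2 lay at -36.0 and -34.7. Wnt3a replicate 3 lay at 4.85 and the arrays with both proteins between 12.8 and 30.0, so on this component replicate 3 stood nearer to its own slide. On the second (27.0%) replicate 3 lay at -32.5, Wnt3a replicates 1 and 2 at 11.4 and -8.19, and the arrays with both proteins at -12.6, 12.5 and 29.3. With this layout of slides, slide and treatment could be told apart only through Wnt3a replicate 3, and each main count is given below against it.

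Basal keratins and the muscle actin of mammary myoepithelium were detected in all groups, whereas most defining luminal markers were not. Of 8 basal markers Krt14, Krt17, Trp63, Acta2 and Mylk were above background on all 12 arrays, Krt5 on 10, Cnn1 on 4 and Oxtr on 1. Of the luminal markers Cdh1, Elf5 and Csn2 were above background on none and Krt18, Krt19 and Epcam on 2 or 3. Fibroblast genes were detected too, with Col1a1, Col1a2, Pdgfrb and Vim above background on all 12 arrays and Lum and Thy1 on none. Of 10 luminal markers Krt8 and Esr1 were above background on all 12 arrays.

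Adding Rspo2 to Wnt3a raised Axin2, the feedback inhibitor of β-catenin signalling, at least 11.6-fold, the bone and liver enzyme alkaline phosphatase (Alpl) by 3.45 on the log2 scale, and the atypical small GTPase Rhou by 2.53. It lowered the neuronal adhesion gene Cntn1 at least 7.28-fold, and the retinaldehyde reductase Dhrs3 fell by 1.63 on the log2 scale. In all, 170 probes were called, 0.747% of those tested. Of these, 94 probes of 77 named genes were higher (0.413% of those tested) and 76 probes of 63 named genes were lower (0.334%), with 16 called probes having no gene symbol. The rises were the larger changes, with a median log2 change of 1.53 against -1.27 for the falls, and 27 probes rose at least 4-fold against 5 that fell as much. All 94 and all 76 had groups that did not overlap, as did 21.4% of all tested probes. With each array scaled to its median in place of the 75th percentile, which shifted the median change of all tested probes to -0.11, 83 were higher and 122 lower, so that 40.5% of calls were rises against 55.3%. Without the 2-fold requirement 405 probes were higher (1.78% of those tested) and 566 were lower (2.49%). An unadjusted p under 0.05 was found for 4196 of the 22750 tested probes, the background for the list counts given below.

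Part of this count came from probes that were near background in 1 group. Only 57 of the 94 higher and 54 of the 76 lower probes were above background on all 6 arrays, and a fit on the probes that met this condition called the same 111. Of the higher probes, 25 were above background on all 3 arrays with both proteins and on no Wnt3a array. Among the lower probes 8 showed the reverse, and 2 stood above background on none of the 6 arrays and were tested only through the other groups. The median signal of called probes was 52.4 intensity units for the rises and 157 for the falls, against 709 for all tested probes. With normexp background correction and an offset of 50, which compresses dim signals, 15 probes were called. Of the 69 probes of named genes 10 then kept their calls, those of Rhou, Ahr, Notum, Klf5 and Sema3c among the rises and of Dhrs3, Hsd11b1, Lman1l, Deptor and 1 probe of Cntn1 among the falls. Of 53 called genes with more than 1 tested probe, 50 had all probes changed in the same direction and 14 had all probes called.

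Against Wnt3a replicate 3 on their own slide, 77 of the 94 higher and 64 of the 76 lower probes differed at least 2-fold. Replicate 3 took part in choosing these probes and none has overlapping groups, so their direction within the slide was fixed by the choice, and the sizes are a description. The median log2 differences were 1.51 and -1.28 within the slide and 1.57 and -1.30 against the other slide. Over all tested probes the spread was of similar size for the treatment difference within the slide (SD 0.338) and for the gap between Wnt3a arrays of the 2 slides (SD 0.384). A limma fit with slide as a term, which rests on Wnt3a replicate 3, called 162 probes, of which 91 were among the 170. The 4 arrays of the shared slide alone gave 46 called probes, 36 of them among the 170, in a fit where the lone Wnt3a array was assumed to vary like the 3 arrays with both proteins, which alone gave the spread. Without Wnt3a replicate 3 the count rose to 329, with 227 higher and 102 lower.

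**Figure D1:**
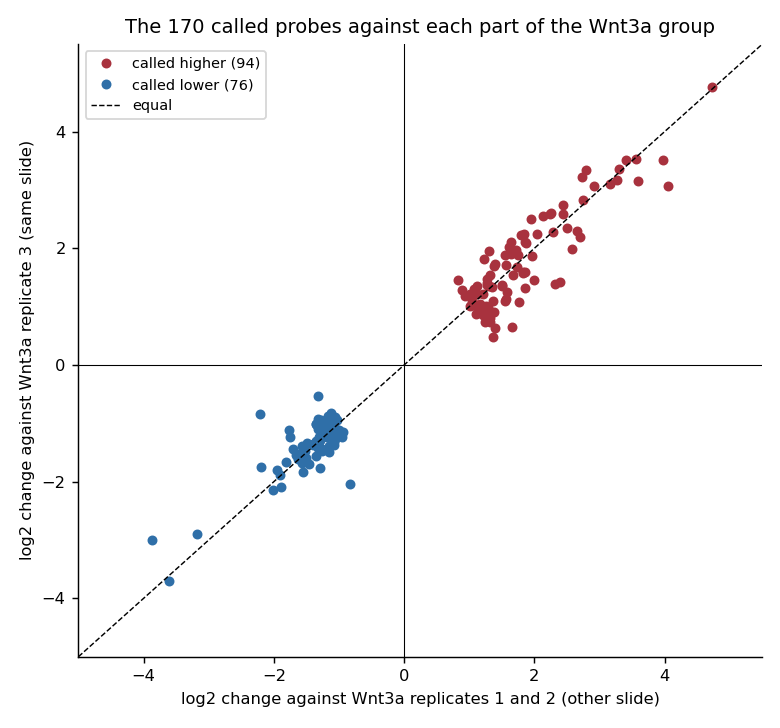
Log2 change of the 170 called probes from Wnt3a to Rspo2 plus Wnt3a, against Wnt3a replicates 1 and 2 on another slide (x axis) and against Wnt3a replicate 3 on the same slide (y axis). Red points are the 94 probes called higher and blue points the 76 called lower, and the dashed line marks equal change. All 6 arrays took part in the choice of probes, so a shared sign on both axes follows from it.

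Among genes above background on all 6 arrays, the largest rise was that of Alpl. Its log2 level was -4.31, -4.41 and -3.92 on the 3 Wnt3a arrays and -0.76, -0.71 and -0.82 with Rspo2 added, a change of 3.45 ± 0.23 (SE, n = 3 per group, limma adjusted p = 1.79e-05). Golga7b stood at -4.28, -4.18 and -4.18 with Wnt3a and at -1.02, -1.11 and -1.11 with both, a rise of 3.13 (adjusted p = 2.19e-06). In both genes the 2 groups lay apart by several times the spread within either. Ch25h, which makes 25-hydroxycholesterol, was at -2.52, -2.34 and -2.51 with Wnt3a and at 0.38, 0.21 and 0.37 with both, a rise of 2.78 ± 0.14 (adjusted p = 3.1e-06). Ahr, the aryl hydrocarbon receptor gene, was at 0.31, 0.38 and 0.20 with Wnt3a and at 2.01, 2.06 and 2.19 with both (log2 change 1.79). Rhou and Enpp2, described with the Wnt targets, were also among the 15 largest rises at probes above background on all 6 arrays. So were 2 genes of signalling proteins, Cxcr6, the receptor of the chemokine Cxcl16 (2.97), and Prr5l, a partner of mTOR complex 2 (2.54). Others among them were the membrane protein Tmem119 (2.49), the potassium channel Kcnj2 (2.06), the liprin Ppfibp2 (1.94 and 1.75 at its 2 probes), the secreted Adamtsl2 (1.80), Lypd2 (1.76) and the immune receptor Pilrb1 (1.75). Kcnj2 showed a gap within the Wnt3a group, at -2.79 and -2.52 for replicates 1 and 2 and -1.69 for replicate 3, and its change was 1.42 on the shared slide and 2.39 against the other. Cxcr6 lost its call when any single array of either group other than Wnt3a replicate 3 was left out, at log2 changes of 2.94 to 3.1.

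The 15 largest falls at probes above background on all 6 arrays ranged from -1.90 to -1.31, against 1.75 to 3.45 for the rises. Foxred2, an oxidoreductase of the endoplasmic reticulum, fell from -2.79, -2.77 and -2.79 with Wnt3a to -4.83, -4.74 and -4.48 with both. Angpt1, the ligand of the Tie2 receptor, fell from -2.65, -2.73 and -2.41 to -4.57, -3.92 and -4.23, a change of -1.64 ± 0.18 (adjusted p = 0.000372), and its other probe changed by -1.27. Deptor, an inhibitor of mTOR, was at 0.89, 0.88 and 1.08 with Wnt3a and at -0.27, -0.38 and -0.51 with both, and its 2 probes each changed by -1.33. In each of these 3 genes the highest array with both proteins lay below the lowest Wnt3a array by more than the range of either group. Lman1l (-1.38), 4931408D14Rik (-1.44), the cyclic nucleotide phosphodiesterase Pde8a (-1.35), the aldo-keto reductase Akr1c14 (-1.34) and the glutamyltransferase Ggt5 (-1.31) were also among these falls. Col22a1, a collagen chain, gave discordant probes, with -1.54 at the called probe and 0.63 at the other.

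**Figure D2:**
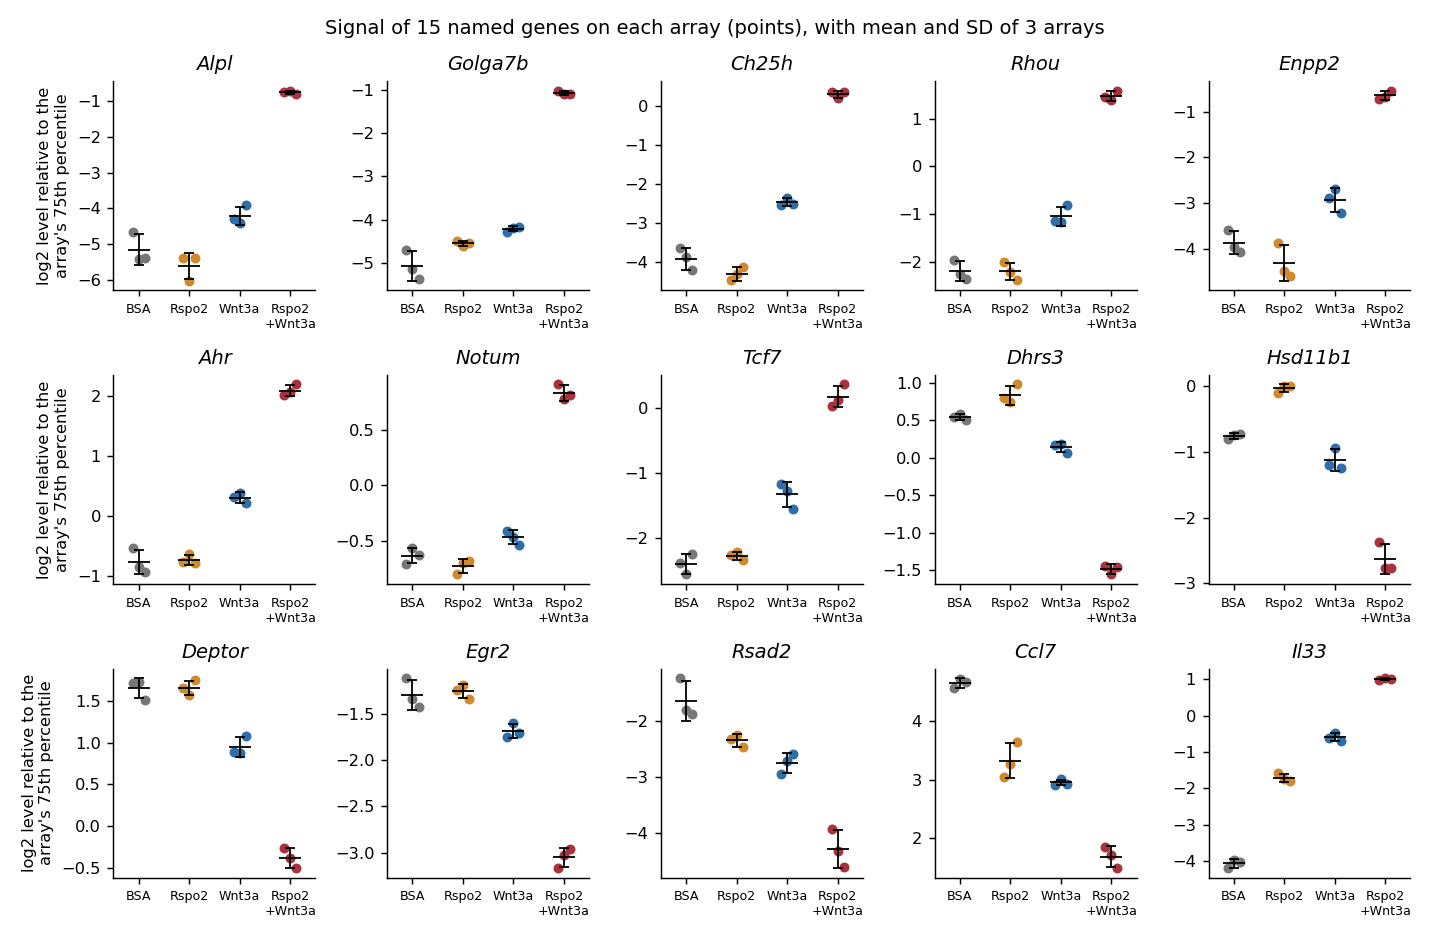
Log2 level relative to the array's 75th percentile (y axis, scaled per panel) of 15 named genes on each of the 12 arrays, by treatment (x axis), with bars for the mean and SD of 3 arrays. In every panel the 3 Rspo2 plus Wnt3a arrays lie apart from the 3 Wnt3a arrays, and Il33, Ccl7 and Rsad2 also differ between Rspo2 and BSA. Hsd11b1 (log2 change 0.73) and Dhrs3 (0.29) are higher with Rspo2 than with BSA, opposite to their fall on top of Wnt3a.

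For genes near background in 1 group only a bound can be given. It compares the mean of the brighter group with the lowest signal counted as above background, or the dimmer group's own signal where that was higher. Axin2 was above background on no Wnt3a array (-5.82, -5.73 and -5.31) and on all 3 arrays with both proteins (-2.14, -1.73 and -1.53), which made it at least 11.6-fold higher (limma adjusted p = 0.000372). The keratin gene Krt76 was at least 6.05-fold higher, the secreted Lgi2 at least 6.03-fold, the retinoic acid hydroxylase Cyp26b1 at least 4.03-fold, the retinol transporter Stra6 at least 3.64-fold and 4921525O09Rik at least 3.05-fold. Krt76 stood above background on none of the 9 BSA, Rspo2 and Wnt3a arrays and reached -2.42, -2.79 and -3.03 with both. In the other direction Cntn1 stood at -2.62, -2.57 and -2.89 with Wnt3a and was above background on no array with both proteins (-5.62, -5.95 and -5.78), at least 7.28-fold lower, with its other probe at least 4.12-fold lower. The secreted glycoprotein Olfm4 (at least 2.36-fold), the glycosyltransferase Gcnt1 (2.29-fold), Plac8 (2.25-fold) and the lipase family gene Lipn (2.16-fold) were lower in the same way. Over all tested probes, 223 were above background on the 3 arrays with both proteins and on no Wnt3a array, and 13 showed the reverse. Each array with both proteins also had a larger share of probes above background than any Wnt3a array. The part of this in these counts was not tested.

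Wnt target and feedback genes were mostly higher. Of 40 listed genes 23 were detected, 5 were called higher and none lower (none at an unadjusted p under 0.05 or by the methods' t-test), and 22 of 23 had a positive change with a median of 0.46. By adjusted p alone 11 were higher and none lower. Over all 12385 genes, each at its brightest probe, 218 were higher and 414 lower, 61 and 52 were called, and the median was -0.03. A positive change was found for 5246 of the 12385. The study had already reported Axin2, Rhou, Enpp2, Edn1, Msln, Twist1, Ccnd1 and Ccn2 as higher with both proteins on these arrays. The contrast with all genes is therefore no independent evidence of direction. The 5 called genes were Axin2, Rhou, Enpp2, which encodes the lysophospholipase autotaxin, the transcription factor Tcf7 and the secreted Wnt deacylase Notum. Rhou stood at -1.16, -1.18 and -0.82 with Wnt3a and 1.47, 1.39 and 1.59 with both (change 2.53 ± 0.14, adjusted p = 5.38e-06). Enpp2 went from -2.88, -2.70 and -3.20 to -0.73, -0.68 and -0.54 (2.28 ± 0.20). Notum, which removes a lipid that Wnt proteins need for activity, went from -0.41, -0.46 and -0.54 to 0.91, 0.77 and 0.81, and its 2 probes changed by 1.30 and 1.06. Tcf7 went from -1.17, -1.27 and -1.55 to 0.04, 0.13 and 0.36, and its probes changed by 1.51 and 1.73. In none of these genes did the groups overlap. Edn1 (0.95), the Wnt inhibitor Apcdd1 (0.86, and 1.22 at a second probe that was called), Msln (0.68), Twist1 (0.69), the cyclin Ccnd1 (0.63) and Ccn2 (0.46) passed the adjusted p without reaching 2-fold at their brightest probes. Myc (0.05 ± 0.07), Msx1 (0.00 ± 0.08) and Cd44 (0.14 ± 0.08) did not pass.

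Of 25 detected genes of Wnt and R-spondin reception, Wnt9a was called higher (1.02 ± 0.22, adjusted p = 0.0271) and no gene was called lower at its brightest probe. Wnt9a levels were -0.67, -1.02 and -1.25 with Wnt3a and between -0.10 and 0.22 with both, its other probe gave 1.63 without a call, and the call was lost when any single array of the 6 other than Wnt3a replicate 1 was left out. Of the R-spondin receptors, Lgr6 stood at -2.19, -2.44 and -2.30 with Wnt3a and -3.47, -3.12 and -3.16 with both, a change of -0.94 ± 0.11 (adjusted p = 0.000643). Its second probe changed by -1.06 and was called. The 3 tested probes of Lgr4 changed by -0.16, -0.25 and 0.05 with adjusted p of 0.218 or more, and Lgr5 was above background on at most 2 arrays of any group and was not tested. The ligases Rnf43 (0.57 ± 0.20, adjusted p = 0.156) and Znrf3 (0.43 ± 0.20, adjusted p = 0.275) and the co-receptors Lrp5 (-0.48 ± 0.31) and Lrp6 (-0.29 ± 0.17) did not pass. Fzd2 (0.56) and Wls, the carrier of Wnt proteins to the cell surface (0.48), were higher by adjusted p alone. Of 25 detected genes of the β-catenin machinery limma called none at its brightest probe, and the methods' t-test with 2-fold gave 0. An unadjusted p under 0.05 was found for 5 of the 25, against 4196 of the 22750 tested probes. Tcf7l2 (0.67), Bcl9 (0.75, and 1.12 at a second probe that was called) and the corepressor Tle2 (-0.97) passed the adjusted p.

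**Figure D3:**
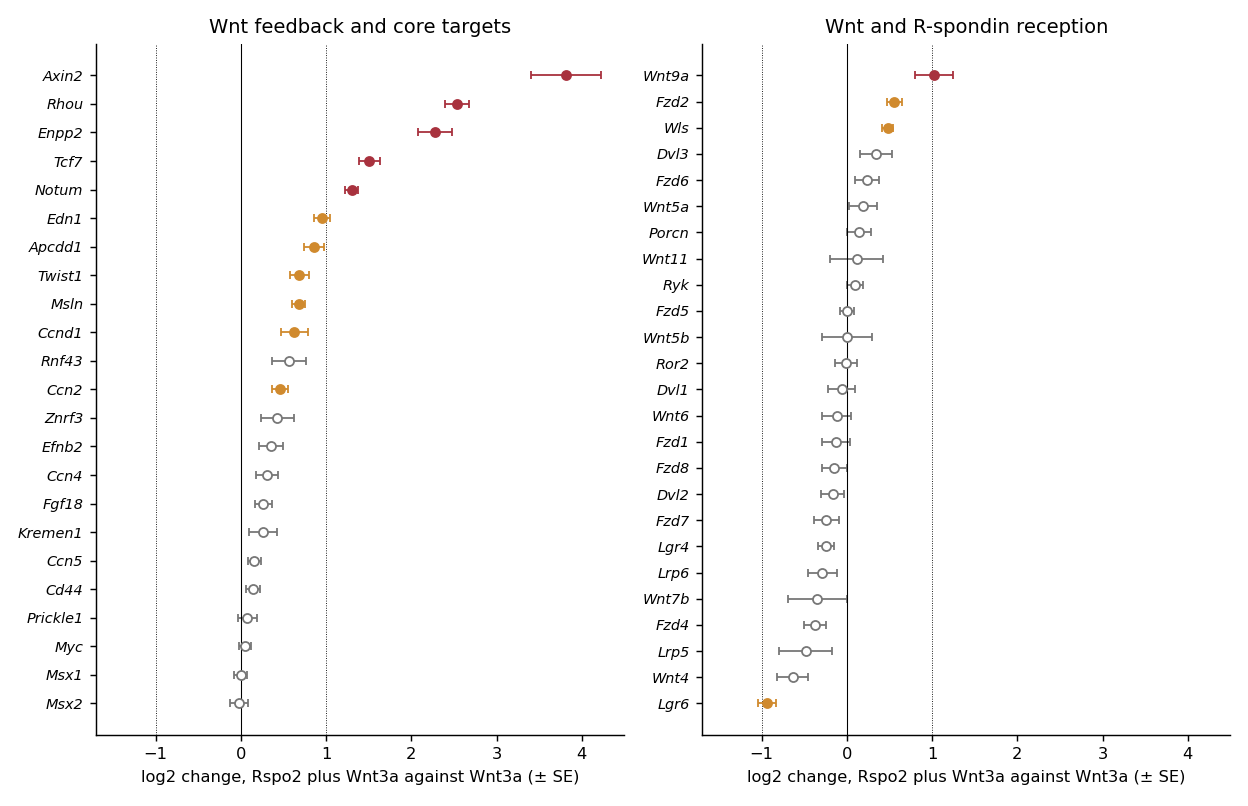
Log2 change from Wnt3a to Rspo2 plus Wnt3a (x axis, with SE from limma) for the 23 detected Wnt feedback and target genes (left) and the 25 detected reception genes (right), each at its brightest probe. Red points were called, orange points passed the adjusted p without 2-fold, open points did neither, and dotted lines mark 2-fold; Axin2 is near background with Wnt3a, so its fitted value is no bound.

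Interferon-stimulated genes were mostly lower. Of 45 detected genes 12 had a positive change at the brightest probe, against 5246 of all 12385 genes. Of the 45, 3 were called lower and none higher, and the median was -0.29. By limma's adjusted p 14 were lower and none higher (24 and 3 at an unadjusted p under 0.05). The methods' t-test with 2-fold gave 1 lower and 0 higher. Rsad2, which encodes the antiviral enzyme viperin, fell from -2.95, -2.71 and -2.59 to -3.93, -4.33 and -4.62, a change of -1.54 ± 0.20 (adjusted p = 0.0013) at 1 of its 3 probes, which ranged up to -0.70. Oasl1 fell from -3.14, -2.09 and -3.02 to -3.55, -3.96 and -4.31, a change of -1.19 whose call was lost without Wnt3a replicate 2 and without either of replicates 2 and 3 of the combination. Ifi44 fell by 1.02 at 1 probe, was at 0.16 at the other, and lost its call without Wnt3a replicate 1 or 2 or combination replicate 2 or 3. Ifit3 (-0.88), Oas2 (-0.91), Cmpk2 (-0.85), Oasl2 (-0.64), Irf9 (-0.61) and Usp18 (-0.57) passed the adjusted p without reaching 2-fold, and Mx2 (-1.23) reached 2-fold without passing (adjusted p = 0.0601). Ifit2 (0.06) and Irf1 (0.12) did not pass.

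Promoter windows of 4 called genes are printed because they hold the core letters of elements known from the Wnt and interferon pathways, whose lists moved in opposite directions. Windows run from 250 bases before to 50 after the start site, are RefSeq sequences of build GRCm38.p6, and were written along the gene. CTTTGAT, the core letters bound by Tcf/Lef factors, and GAAANNGAA, those of the interferon-stimulated response element, were searched on both strands, and capitals mark the matches. The first pair holds GAAANNGAA and belongs to interferon-stimulated genes that fell.
Rsad2, chr12:26456403-26456702, minus strand: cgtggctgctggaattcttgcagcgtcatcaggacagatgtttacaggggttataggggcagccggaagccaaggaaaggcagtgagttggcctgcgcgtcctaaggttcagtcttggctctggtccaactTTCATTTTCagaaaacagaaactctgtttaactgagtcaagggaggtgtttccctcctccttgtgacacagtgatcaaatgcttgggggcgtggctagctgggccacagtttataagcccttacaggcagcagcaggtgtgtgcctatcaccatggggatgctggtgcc
Ifi44, chr3:151749861-151750160, minus strand: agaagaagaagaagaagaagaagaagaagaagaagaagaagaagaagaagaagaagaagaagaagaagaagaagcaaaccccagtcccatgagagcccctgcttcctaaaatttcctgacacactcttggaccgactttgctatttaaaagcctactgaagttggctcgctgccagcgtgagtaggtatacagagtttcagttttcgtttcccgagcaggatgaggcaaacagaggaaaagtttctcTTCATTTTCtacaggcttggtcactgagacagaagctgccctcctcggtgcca
The second pair holds CTTTGAT, in the window of a gene that rose and of a gene that fell.
Stra6, chr9:58129099-58129398, plus strand: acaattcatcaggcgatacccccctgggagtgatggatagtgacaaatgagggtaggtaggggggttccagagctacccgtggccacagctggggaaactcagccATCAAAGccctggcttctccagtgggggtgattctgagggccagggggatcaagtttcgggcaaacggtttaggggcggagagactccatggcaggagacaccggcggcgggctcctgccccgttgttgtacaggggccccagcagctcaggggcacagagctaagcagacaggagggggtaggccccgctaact
Cntn1, chr15:92050915-92051214, plus strand: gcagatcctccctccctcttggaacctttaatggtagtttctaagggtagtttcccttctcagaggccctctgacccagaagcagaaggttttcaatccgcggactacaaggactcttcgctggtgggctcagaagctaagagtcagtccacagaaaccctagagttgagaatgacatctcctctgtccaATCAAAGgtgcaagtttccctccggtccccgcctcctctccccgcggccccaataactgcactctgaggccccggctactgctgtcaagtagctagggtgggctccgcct
Windows were found for 57 of the 77 higher and 47 of the 63 lower genes. GAAANNGAA was in 4 of the 80 windows of higher genes (5.00%) and 10 of the 63 windows of lower genes (15.9%), against 7.0% of the 12192 windows of all tested genes and 8.56% of all 32851 windows. Beside Rsad2 and Ifi44, the lower genes holding it were Lgr6, Dhrs3, Akr1c14, Egr2, Fyb, Olfm4 and Sprr2a1, which were outside the interferon list. CTTTGAT was in 4 of 80 (5.00%) and 1 of 63 (1.59%), against 2.62% of the windows of tested genes and 3.73% of all windows. The windows of Axin2, Tcf7 and Rhou held no CTTTGAT, which says nothing of sites outside these 300 bases. Shares rest on few windows, several of which belong to the same gene.

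Inflammatory genes moved in both directions. Of 24 detected chemokines and interleukins Cxcr6 and the cytokine Il33 were called higher and the chemokine Ccl7 lower. Il33, which acts as an alarm signal of damaged epithelium, went from -0.62, -0.48 and -0.70 to 0.99, 1.03 and 1.01 (1.61 ± 0.09, adjusted p = 5.57e-06). Ccl7 was at 2.91, 3.01 and 2.93 with Wnt3a and 1.85, 1.71 and 1.49 with both, and its 2 probes changed by -1.27 and -1.29. Cxcl12 (-0.93), Ccl17 (-0.87), Cx3cl1 (-0.77), Ccl2 (-0.61), Ccl5 (-0.60) and Cxcl5 (-0.42) were lower by adjusted p alone, and Il1rn (0.80) and Il6 (0.46) were higher. Of 19 detected acute phase and complement genes 8 were lower and none higher by limma's adjusted p (9 and 0 at an unadjusted p under 0.05), with a median of -0.35. The iron-binding protein gene Lcn2 was called (-1.42), from -4.01, -4.03 and -3.81 to -5.11, -5.46 and -5.53, and Orm2 (-0.99), Orm1 (-0.94) and C3 (-0.87) were just short of 2-fold. Of 19 NF-kB pathway genes limma called none (4 lower and 0 higher at an unadjusted p under 0.05, 0 by the methods' t-test), and Nfkbiz (-0.78), Tnfrsf1b (-0.57), Nfkbia (-0.52) and Traf1 (-0.51) were lower by adjusted p.

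Summed signals of macrophage, adipocyte and fibroblast markers were lower with both proteins, and those of basal and lymphocyte markers were higher. The summed linear signal of 6 macrophage markers, in units of the 75th percentile, was 7.02 to 7.58 with Wnt3a and 4.94 to 5.44 with both. Most of it came from Cd14 (log2 change -0.59), which epithelial cells can also express. The defining markers Adgre1 and Itgam were each above background on 1 of 12 arrays. The sum of 8 basal markers was 186 to 207 and 221 to 259, most of it Acta2, which did not pass (0.30, limma adjusted p = 0.0859). Single basal markers moved both ways. Krt14 (0.58, adjusted p = 0.00722) and Krt5 (0.79, adjusted p = 0.0404) were higher. Krt17 (-0.55, adjusted p = 0.00422) and Trp63 (-0.45, adjusted p = 0.0429) were lower. Fibroblast sums were 245 to 259 and 242 to 244. The sum of 4 adipocyte markers was 0.502 to 0.565 and 0.288 to 0.372, most of it from Fabp4 (-0.87, adjusted p = 0.00331), while Plin1 and Lep were above background on no array. The sum of 3 lymphocyte markers was 0.0957 to 0.137 and 0.144 to 0.246. Of these markers, Ptprc was above background on 1 of 12 arrays and Cd3e (0.87, limma adjusted p = 0.194) did not pass. Luminal sums (0.379 to 0.465 and 0.448 to 0.483) and endothelial sums (1.66 to 1.87 and 1.63 to 1.75) overlapped. In these bulk samples a change in RNA per cell and a change in the share of cells cannot be told apart, and the part of either in the results was not tested.

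Genes of retinoid, glucocorticoid and angiotensin metabolism changed in opposite directions. Of 18 detected genes of this list 2 were called higher, Stra6 and Cyp26b1, and 3 lower, Dhrs3, Hsd11b1 and Agt, and the list median was -0.08. Dhrs3, which returns retinaldehyde to retinol, had the smallest standard error of these, at 0.17, 0.19 and 0.06 with Wnt3a and -1.44, -1.56 and -1.46 with both (-1.63 ± 0.08, adjusted p = 3.1e-06), and its 2 probes changed by -1.63 and -1.58. Hsd11b1, which regenerates active glucocorticoid, fell from -1.20, -0.94 and -1.24 to -2.37, -2.76 and -2.77. Agt, the angiotensin precursor, fell from -2.99, -2.77 and -2.91 to -3.95, -4.46 and -4.44. Of 6 detected genes of the aryl hydrocarbon receptor list, Ahr was called and Aldh3a1 (0.82) and Tiparp (0.40) were higher by adjusted p.

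In the sterol list of 28 detected genes, Ch25h was called higher and Abcg1, which exports cholesterol, lower, while Abca1 (-0.74), Mvd (-0.49) and Dhcr7 (-0.37) were lower by adjusted p. Abcg1 stood at -4.25, -3.78 and -4.04 with Wnt3a and -5.47, -5.28 and -5.26 with both. The growth factor lists had few calls. Tgfb2 (1.42 ± 0.23) and the activin antagonist Fst, at least 1.97-fold higher, were called among 40 TGF-β and BMP genes, and Inhba (0.89), Inhbb (0.77) and Tgfbr2 (0.77) were higher by adjusted p while the BMP targets Id4 (-0.92), Id2 (-0.57) and Smad6 (-0.54) were lower. Tgfb2 varied among arrays with both proteins, at -1.17, -1.80 and -0.88. The receptor genes Fgfrl1 (1.08) and Gfra2 (1.14) rose and Angpt1 fell among 42 growth factor genes. Igfbp2 (1.75, with its call lost when any of the 6 arrays but Wnt3a replicate 3 was left out) among 15 insulin and IGF genes, and Helt (1.40), a Hes-related repressor, among 10 Notch genes, were each the 1 call of their list at the brightest probes. Irs1, which relays the insulin receptor signal, changed by 0.84 at its brightest probe (adjusted p = 0.00597) and by 1.13 at a second probe that was called.

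Of 24 guidance genes 1 was called higher and 2 lower. Sema3c, a class 3 semaphorin, went from 0.27, 0.06 and 0.33 to 1.29, 1.38 and 1.28, whereas Cntn1 and Sema3a, another class 3 semaphorin, fell. Sema3a stood at -2.84, -2.79 and -2.87 with Wnt3a and -3.89, -4.01 and -3.88 with both at its brighter probe, a change of -1.09, and its dimmer probe was also called (-1.54). Among 48 matrix genes Smoc1 (-1.16) was the 1 call at the brightest probes, the protease Adamts5 was called lower at a dimmer probe (-1.23, and -0.49 without a call at its brightest), and Timp3 (0.86), Sdc2 (0.56), Spp1 (-0.76) and Mmp3 (-0.48) passed the adjusted p. Of the immediate early genes Egr2 fell from -1.75, -1.61 and -1.71 to -3.17, -3.03 and -2.96, Egr3 (-0.91) and Egr1 (-0.63) were lower by adjusted p, and Klf5 (1.18, and 1.63 at a second probe) was higher. Rhou was the 1 call among 21 actin and myoepithelial genes at their brightest probes. None of 43 cell cycle genes, 25 amino acid and endoplasmic reticulum stress genes, 27 glycolysis and hypoxia genes, 12 Hox genes or 18 epithelial and mesenchymal genes was called by limma at its brightest probe. In these lists 6, 4, 4, 3 and 7 genes had an unadjusted p under 0.05, against 4196 of the 22750 tested probes. The methods' t-test with 2-fold gave Hoxa9 and no others. Ccnd1 was the 1 cell cycle gene that passed the adjusted p, and no amino acid or endoplasmic reticulum stress gene did. Car9 (-0.76), Egln3 (-0.45) and Vegfa (-0.45) of the hypoxia list passed it. In the Hox list Hoxa5 (-0.72) was lower and Hoxb9 (0.52) higher by adjusted p. Among epithelial and mesenchymal genes Sox9 (-0.81) and Snai1 (-0.53) were lower and Twist1 (0.69) and Zeb2 (0.39) higher.

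**Figure D4:**
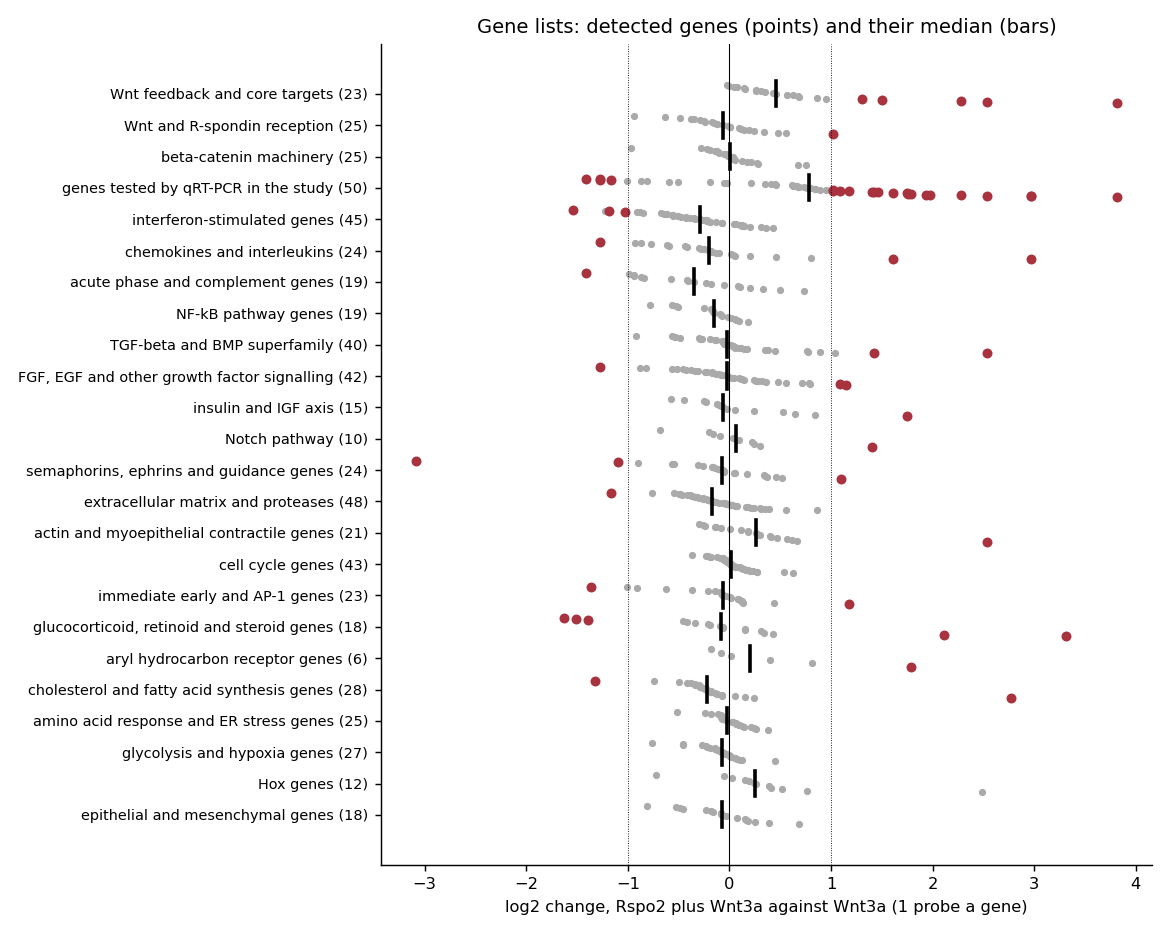
Log2 change from Wnt3a to Rspo2 plus Wnt3a (x axis) of the detected genes of 24 lists (y axis, number detected in brackets), each at its brightest probe. Red points were called, grey points were not, black bars are list medians and dotted lines mark 2-fold; the medians lie at 0.46 for Wnt targets, -0.29 for interferon-stimulated genes and -0.35 for acute phase genes.

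Of 50 genes that the study had chosen from these arrays for qRT-PCR, 18 were called higher and 4 lower at their brightest probes. This is no independent evidence of direction, since the study chose the list on these samples. Beside those described above they included the membrane protein gene Tspan18 (2.97 ± 0.28), the kinase Tec (1.97 and 2.13 at 2 probes), Klhl30 (1.46) and Insc, an adaptor of spindle orientation (1.02). Insc had nearly equal values within groups, at 1.27, 1.25 and 1.27 against 2.39, 2.23 and 2.23, and its change was just above 2-fold (0.96 without combination replicate 1). The called genes nearest to the 2-fold limit were Insc, Arl4c (1.02) and Wnt9a (1.02) above it and Hivep3 (-1.003), Mroh4 (-1.004) and the second probe of Lman1l (-1.01) below. Probes of Pgbd5 (0.997), Kcnj16 (0.98), Arhgdib (0.98), Arap3 (-0.99), Orm2 (-0.99) and Tcim (-0.98) passed the adjusted p just short of it. Kcnj16 (1.09) and Tcim (-1.12) were called at another probe.

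The same addition of Rspo2 in the absence of Wnt3a, measured on 6 other arrays as Rspo2 against BSA, changed few of the called genes. Of the 94 probes that rose, 4 were called higher with Rspo2 alone (0.101% of all tested probes were) and 4 were called lower (0.62%). Of the 76 that fell, 6 were called lower and 1 higher. The median log2 change with Rspo2 alone was near 0 for the risers (-0.00065) and -0.06 for the fallers, and 47 of 94 and 42 of 76 had the same sign. Of all tested probes 51.5% were higher with Rspo2 alone than with BSA, so both counts lie near the background. The genes that rose both times were Il33 (2.35 with Rspo2 alone), Hopx (1.24 alone and 1.32 on Wnt3a), Krtap1-5 (1.67 and 1.15) and Cemip (1.03 and 1.07). Those that fell both times were Ccl7 at both probes (-1.33 and -1.38 alone), Lcn2 (-4.34), the antimicrobial peptide gene Camp (-1.41), Mx1, whose probe was above background on none of the 6 arrays, and a probe with no symbol. Atf7ip2 (-1.51 alone and 2.29 on Wnt3a) and Cdkl1 (-1.40 and 1.53) were lower with Rspo2 alone and higher on top of Wnt3a, and 1700016C15Rik (1.03 and -1.28) was the reverse. The immune lists, called or not, had negative medians in both settings. Median log2 changes alone and on Wnt3a were -0.29 and -0.29 for interferon-stimulated genes and -0.19 and -0.20 for chemokines and interleukins. Acute phase and complement genes had -0.20 and -0.35, NF-kB genes -0.30 and -0.15, and all genes 0.06 and -0.03.

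The difference between the 2 settings was tested as an interaction in the same limma fit. Since it contains the comparison that chose the probes, its count among them is a description. It was called with the sign of the change for 65 of the 94 rises (1.27% of all tested probes had a called positive interaction) and 49 of the 76 falls (0.651% a negative one). By fitted values, which are no bounds for probes near background, the 5 largest positive interactions were those of Krt76 (4.75), 4921525O09Rik (4.11), Axin2 (4.10), Stra6 (4.03) and Lgi2 (3.92), none of which was above background on any Wnt3a array, and the largest above background on all 6 arrays was that of Alpl (3.89, adjusted p = 0.000161). The 5 largest negative ones were Olfm4 (-3.52), Cntn1 (-3.27), Dapk2 (-2.64), 1700016C15Rik (-2.31) and Hsd11b1 (-2.24). Lcn2 went against its own change (2.92), as it fell by 4.34 with Rspo2 alone and by 1.42 on top of Wnt3a, where 4 of 6 arrays stood above background. Ccl7 changed by close to the same amount in both settings, with an interaction of 0.06 (adjusted p = 0.872), and for Rsad2 the interaction did not pass (-0.83, adjusted p = 0.0834).

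**Figure D5:**
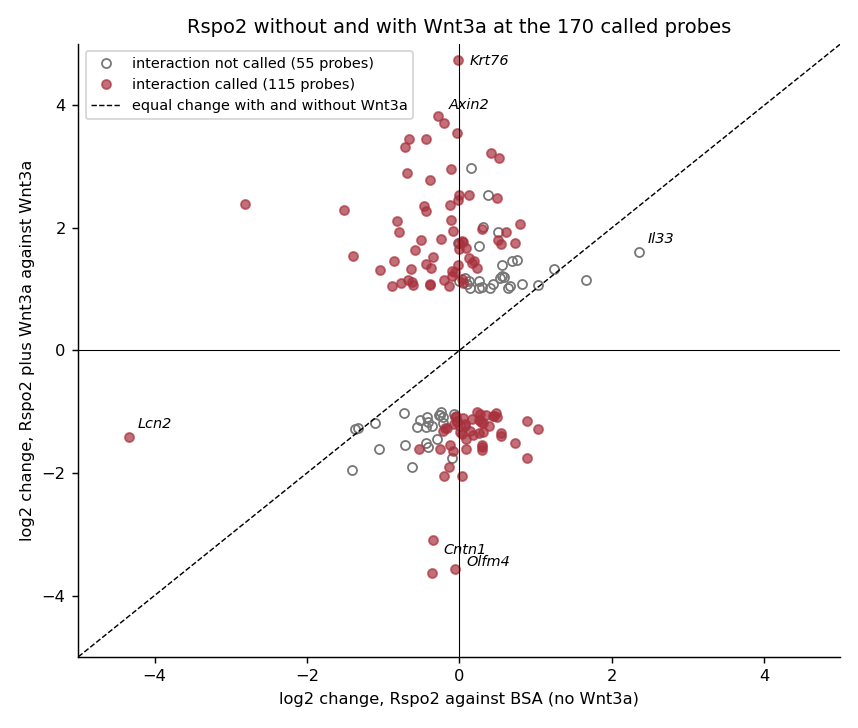
Log2 change of the 170 called probes with Rspo2 against BSA (x axis) and with Rspo2 plus Wnt3a against Wnt3a (y axis), 2 comparisons with no array in common. Red points had a called interaction (115 probes), open points did not (55), and the dashed line marks equal change; most points lie along the vertical axis, with Il33 and Lcn2 away from it.

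Values for Wnt3a against BSA, which shares the Wnt3a arrays, are set beside the changes without a test. Alpl was 0.95 and Ch25h 1.45 higher with Wnt3a alone, before further rises of 3.45 and 2.78. Notum (0.16), Fgfrl1 (0.22) and Sema3c (0.01) differed little between Wnt3a and BSA, before rises of 1.30, 1.08 and 1.10, and Sema3c was lower with Rspo2 alone (-0.76). Deptor was 0.70 lower with Wnt3a (-0.70) and then 1.33 lower again (-1.33). Olfm4 was above background on all 3 Wnt3a arrays and on no BSA array, and with Rspo2 added it went from -3.48, -4.59 and -4.90 to -7.96, -7.89 and -7.84, below background on all 3 arrays.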

How the data were processed

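RNA from 12 monolayers of C57MG cells (4 treatments, 3 monolayers each) had been hybridized by the authors to 1-colour Agilent 4x44K mouse arrays and read with Feature Extraction 9.5.3.1. The deposited scanner files hold intensity per spot, already background-subtracted by the authors' software, and the deposited series table holds a ratio of each value to a scaling value of its array, used here as an alternative. Control spots and spots marked as uneven or as outliers were left out (1327 of 520548 values), spots of a probe were averaged, and log2 signals were taken relative to each array's 75th percentile.

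Groups came from the sample titles. One limma 3.58.1 model (R 4.3.3) was fitted to 4 groups over 22750 probes, with Benjamini-Hochberg adjustment over them, the Rspo2 plus Wnt3a minus Wnt3a contrast and the interaction. A probe counts as above background when at least 0.5 of its spots carry the scanner's flag. The number of arrays limits the precision. Probes were named through RefSeq tables (22951) or the file's own symbol (10367). Named genes were the 15 largest rises and falls above background on all 6 arrays without overlap, the 6 largest bounds each way, called genes of the Wnt and qRT-PCR lists with the receptor and ligase genes, up to 4 called genes of each other list, and the 5 largest interactions each way. Genes outside this rule are named from their lists or as exceptions after their values were seen, and some genes are not reported here. The methods' t-test is the unequal-variance test of the study's methods on linear signals. Members and lists were chosen with earlier results of these data known. Same-numbered samples did not deviate together (correlations of -0.404, -0.04 and -0.413), so replicate numbers were not taken as pairs.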

Additional observations from a re-analysis of the deposited data

Results flagged for a closer look

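Rspo2 changed these genes differently with and without Wnt3a by the interaction term of the limma model, which is the change with Rspo2 on top of Wnt3a minus the change with Rspo2 over BSA. It was called, at an adjusted p under 0.05 and a 2-fold difference, at 115 of the 170 called probes, and the values below are log2 differences for the named genes. Since both terms share the arrays with both proteins, these values are a description of genes already chosen by their change.

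Among Wnt targets the interaction was Axin2 (4.10), Enpp2 (2.71), Rhou (2.54), Notum (1.40) and Tcf7 (1.38), so each rose more with Wnt3a present. Other genes with a positive interaction and signal above background on all 6 arrays were Alpl (3.89), Ch25h (3.16), Golga7b (2.62), Tmem119 (1.99), Sema3c (1.86), Gfra2 (1.82) and Pilrb1 (1.75). Smaller positive values were those of Ahr (1.75), Lypd2 (1.71), Ppfibp2 (1.32), Adamtsl2 (1.29), Kcnj2 (1.27) and Tgfb2 (1.25).

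The negative interactions above background on all 6 arrays were Hsd11b1 (-2.24), Agt (-1.94), Dhrs3 (-1.92), Pde8a (-1.91), Col22a1 (-1.83), Foxred2 (-1.76), Akr1c14 (-1.60), Lman1l (-1.56), Angpt1 (-1.55) and 4931408D14Rik (-1.53). Smaller ones were Oasl1 (-1.50), Ggt5 (-1.45), Egr2 (-1.40), Deptor (-1.33), Smoc1 (-1.13) and Abcg1 (-1.11).

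At probes not above background on all 6 arrays the fitted values were Krt76 (4.75), 4921525O09Rik (4.11), Stra6 (4.03), Lgi2 (3.92), Tspan18 (3.07), Cyp26b1 (2.93), Fst (2.40) and Tec (1.68) on the positive side and Olfm4 (-3.52), Cntn1 (-3.27), Dapk2 (-2.64), 1700016C15Rik (-2.31), Plac8 (-2.09) and Sema3a (-1.42) on the negative side, and these sizes are no bounds. Lcn2 (2.92) was the 1 probe with a called interaction that ran against its change. All of these lie largely between slides, as the BSA arrays share no slide with the arrays with both proteins, so slide and treatment cannot be told apart for most of this term; with slide as a term 77 probes were called in both comparisons.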

How the results depend on the processing

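The 69 named probes, all of them called, kept their direction under each of the 32 alternatives in which they were tested, which was 50 of them with only probes above background on all 6 arrays and 41 on all 12, and 61 kept their call with each of the 12 arrays left out in turn. Their groups do not overlap, so leaving out an array, changing the test or limiting the probes could not reverse their direction. Named genes without a call, such as Lgr4, Lrp5, Lrp6, Rnf43 and Znrf3, were not among the 69. The main counts were 170 probes called, 94 higher and 76 lower, with 115 also called for the interaction. Leaving out single arrays gave 139 to 329 called, 72 to 227 higher, 67 to 103 lower and 89 to 237 with the interaction, and the highest 329, 227 and 237 were all without Wnt3a replicate 3, the control array on the slide of the combination. With normexp background correction and an offset of 50, which draws dim probes together, 15 were called (6 higher, 9 lower, 3 with the interaction). Only probes above background on all 6 arrays gave 111 (57 higher, 54 lower), and on all 12 arrays 95 (40 higher, 55 lower, 59 with the interaction), since fewer were tested. With no filter 72 had the interaction too. Median scaling gave 122 lower. The 4 arrays of the shared slide, with its 1 Wnt3a array assumed to vary like the others, gave 46 (34 higher, 12 lower). The methods' t-test gave 196 before and 1 after Benjamini-Hochberg adjustment (1 higher, 0 lower). Dropping the 2-fold requirement gave 971 (405 higher, 566 lower), and testing against 1.2-fold with treat gave 127 lower. The cause of the other differences was not tested. With slide as a random block (correlation 0.136) 160 were called, 156 of them among the 170, and with the replicate block 162 (89 higher, 73 lower, 98 with the interaction), where Wnt9a and 1700016C15Rik lost their calls and no other named probe did.

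Single arrays decided the calls of these genes. Wnt9a fell short without Wnt3a replicate 2 (1.00) or 3 (0.89) or combination replicate 1 (1.04), 2 (1.09) or 3 (0.93). Igfbp2 fell short without Wnt3a replicate 1 (1.59) or 2 (1.82) or combination replicate 1 (1.62), 2 (1.78) or 3 (1.84). So did Cxcr6, at 3.02, 3.1, 2.97, 3.0 and 2.94 in the same order. Without Wnt3a replicate 1 or 2 or combination replicate 2 or 3, Ifi44 fell short at -1.0, -0.95, -0.92 and -0.86 and 1700016C15Rik at -1.25, -1.28, -0.99 and -1.19. Oasl1 fell short without Wnt3a replicate 2 (-0.86) or combination replicate 2 (-1.18) or 3 (-1.0), and Insc without combination replicate 1 (0.96). With slide as a term 20 of the named probes lost their calls, and on the shared slide alone 45 did. Signal near background limits the sizes for probes above it in only 1 group.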
